A study of Mus musculus with 6 samples.

Results

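Matrix metalloproteinases were examined in mammary epithelial organoids, the pieces of duct and alveolus that remain when a gland is digested, from mice with and without Wwox in the epithelium. The genes were Mmp2, Mmp3, Mmp9, Mmp10, Mmp11, Mmp12, Mmp13, Mmp14, Mmp15 and Mmp19, and every probe set whose annotation gives exactly 1 of these symbols was taken, whatever its value. Of these 10 genes, 9 were measured, by 14 of the 45037 probe sets tested. The annotation used here pairs no probe set with Mmp15, which was not analysed here. Each of 6 Affymetrix mouse genome arrays held the RNA of 1 mouse of 8 weeks on a background labelled as a mix of 129/J and C57BL/6, where the methods name 129SV for the floxed mice. The WT group (WT1, WT2 and WT3, replicates 1, 2 and 3) was BK5-cre - with both Wwox alleles floxed, and the KO group (KO5, KO6 and KO7, replicates 1, 2 and 3) was BK5-cre + with the same floxed alleles. In BK5-Cre the bovine keratin 5 promoter drives the recombinase, from before birth, in basal epithelial cells of the gland and of other epithelia. No mouse on the arrays carried Cre with intact Wwox, so that effects of Cre itself and of losing Wwox cannot be told apart. All levels below are the log2 values the authors deposited, and all differences are KO minus WT on that scale.

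Matrix metalloproteinases are zinc-dependent proteases that cut collagens, laminins and other proteins of the matrix. They are made as inactive proenzymes, in which a cysteine of the propeptide blocks the zinc, and they become active when the propeptide is removed. Most are secreted, whereas Mmp14 and Mmp15 span the membrane. Tissue inhibitors of metalloproteinases (Timps) bind the active site, and Timp2 also holds proMmp2 on Mmp14 so that it can be activated. In the mammary gland these enzymes come largely from the stroma around the ducts, and they are known for roles in ductal invasion, side branching and involution.

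A feature shared by Mmp13, Mmp12, Mmp3 and Mmp10, and not used to choose them, is their place and promoter. They lie on chromosome 9 in a run of 10 neighbouring protein-coding genes (RefSeq, GRCm38.p6) that are all metalloproteinases. RefSeq promoter windows of 300 bases (250 before the start and 50 after) were given for 7 of the 10 genes, in 8 windows. These were searched for TGANTCA, the letters bound by AP-1, which reads the same on both strands, and for TATAAA on either strand. Of the run, Mmp13, Mmp12, Mmp3 and Mmp10 alone were searched, and each had a window with both motifs, while the windows of Mmp11, Mmp14, Mmp15 and the other start of Mmp12 had neither. Over all 32851 windows, 7.81% held TGANTCA, 13.6% held TATAAA and 1.54% held both. The stretches that carry the matches are shown from 100 bases before the start to base 20 after it, plus strand, with the matches in capitals.
Mmp13, chr9:7272414-7272533: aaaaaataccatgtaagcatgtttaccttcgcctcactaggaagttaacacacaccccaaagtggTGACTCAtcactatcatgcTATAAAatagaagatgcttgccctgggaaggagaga
Mmp12, chr9:7347274-7347393: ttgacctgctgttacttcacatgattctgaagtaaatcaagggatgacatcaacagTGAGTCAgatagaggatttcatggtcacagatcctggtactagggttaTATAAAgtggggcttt
Mmp3, chr9:7445722-7445841: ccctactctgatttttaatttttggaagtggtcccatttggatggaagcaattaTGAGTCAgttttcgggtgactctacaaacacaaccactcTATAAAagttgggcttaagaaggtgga
Mmp10, chr9:7502242-7502361: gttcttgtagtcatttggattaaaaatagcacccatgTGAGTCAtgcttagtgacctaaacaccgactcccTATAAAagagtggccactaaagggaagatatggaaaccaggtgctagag
The AP-1 letters begin at base -35 in Mmp13, -44 in Mmp12, -46 in Mmp3 and -63 in Mmp10. The place of TATAAA differs, beginning at base -16 in Mmp13, -7 in Mmp3, -29 in Mmp10 and, after the start, 5 in Mmp12. A match is a description of the letters and not of binding.

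On the arrays as a whole the labels held, and the groups differed in more than Wwox. The brightest Wwox probe set (highest in its average across the 6 arrays) had a WT mean of 7.71 ± 0.07 (SD, n = 3) against 6.02 ± 0.19 (SD, n = 3) for KO, and was called lower. Luminal and myoepithelial markers were all outside the range of the olfactory receptor probe sets described below, with median KO minus WT differences of 0.09 and 0.07 over 8 genes each. The difference between the 3' and 5' control probe sets, averaged over Gapdh and β-actin, was taken as a measure of RNA quality. It lay between 0.96 and 2.13 in WT and between 0.54 and 0.60 in KO. It was largest on WT2 and WT3 (p = 0.1 for Gapdh and for β-actin, two-sided exact permutation test, the smallest that 3 against 3 can give). Calls below need p under 0.01 before adjustment together with at least 2-fold in limma, which gave 759 higher and 135 lower in KO, or 1193 and 62 after the arrays were centred on ribosomal protein genes.

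Of the 14 metalloproteinase probe sets, 1 was called higher in KO and 0 lower (limma, 1 lower if only p under 0.05 is asked), where 1.69% of all probe sets were called higher, 0.3% lower and 1.99% either way. The called probe set belongs to Mmp14. On the brightest probe set of each gene 0 of 9 members were called in either direction in limma, against 0.517% higher, 0.462% lower and 0.978% either way over 18193 genes. Of these 9, Mmp2 and Mmp14 (higher) and Mmp9 (lower) had p under 0.05 before adjustment, against 19.1% of all genes, and on 3 of the 9 the groups did not overlap, against 23.3%. The median difference of the 9 was -0.21, beside -0.06 over all genes. When a call on any of a gene's probe sets sufficed, 1 of 9 was called higher, and 0 lower, against 2.95% and 0.55% of all genes. An unadjusted p under 0.05 was reached by 6 of the 14 (42.9%), against 19.3% of all probe sets, and these were the 3 probe sets of Mmp14, both of Mmp2 and 1 of Mmp9. None of the 14 passed an adjusted p under 0.05, which 0.222% of all probe sets did. The groups did not overlap on 5 of the 14, against 24.3% of all probe sets, with KO above on 3 (10.7% of all) and below on 2 (13.6% of all). Probe sets of 1 gene share their transcripts, so that these counts rest on fewer genes than probe sets.

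**Figure D1:**
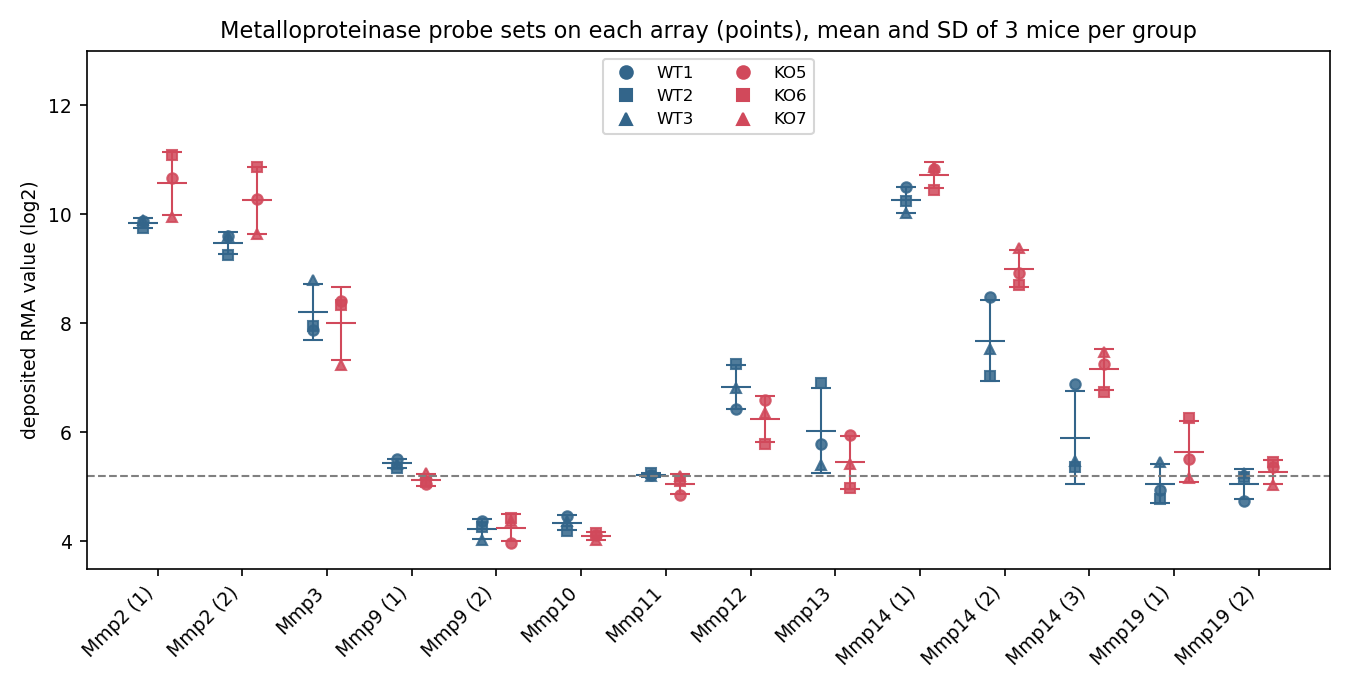
Deposited RMA value (log2) of each metalloproteinase probe set on each array, with bars for each group's mean and SD (n = 3), numbers in brackets ordering the probe sets of a gene from brightest to dimmest, and a dashed line at 5.21, the 95th percentile of olfactory receptor probe sets. KO arrays lie above all WT arrays for both Mmp2 probe sets and for Mmp14 (2), and Mmp9 (2), Mmp10, Mmp11 and Mmp19 (2) have averages over all 6 arrays under the line.

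Mmp14, the membrane-bound collagenase that also activates proMmp2, had KO means above WT means on each of its 3 probe sets, by 0.46 to 1.32. On the called probe set (1440920_at) WT1, WT2 and WT3 were at 8.48, 7.03 and 7.53, and KO5, KO6 and KO7 at 8.92, 8.71 and 9.38. Every KO array lay above every WT array, but WT1 was only just below KO6. The difference was 1.32 (standard error 0.36, 95% interval 0.48 to 2.17), or 2.50-fold, with an unadjusted p = 0.0072 and an adjusted p = 0.117 by limma. On the dimmest probe set (1416572_at) the WT arrays were at 6.88, 5.36 and 5.47 and the KO arrays at 7.25, 6.75 and 7.48. WT1 lay above KO6 here, and the difference of 1.25 (standard error 0.41, adjusted p = 0.159 by limma) was not called. On the brightest probe set (1448383_at) the WT arrays were at 10.50, 10.25 and 10.03 and the KO arrays at 10.82, 10.44 and 10.88. The groups overlapped, and the difference of 0.46 (95% interval 0.05 to 0.86) excluded a 2-fold change.

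The Mmp14 probe sets gave different sizes. The brightest minus the called probe set was 2.02, 3.22 and 2.50 in WT and 1.90, 1.74 and 1.499 in KO, with no overlap (exact permutation test, two-sided, p = 0.1, the smallest possible). The brightest minus the dimmest was 3.62, 4.89 and 4.56 in WT and 3.58, 3.70 and 3.40 in KO, with WT1 below KO6 (exact permutation test, two-sided, p = 0.2). The spread of the WT arrays was wide on the called and the dimmest probe sets, with SDs of 0.74 and 0.85 against 0.34 and 0.37 in KO. On each of these 2 probe sets the WT arrays ran in the opposite order to their 3' minus 5' differences, with WT1 highest in Mmp14 and lowest in that measure. With the mean of that measure per array as a covariate, the called probe set was at -0.01, the dimmest at -0.25 and the brightest at 0.13. Since the groups do not overlap in the measure, it cannot be told apart from genotype.

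**Figure D2:**
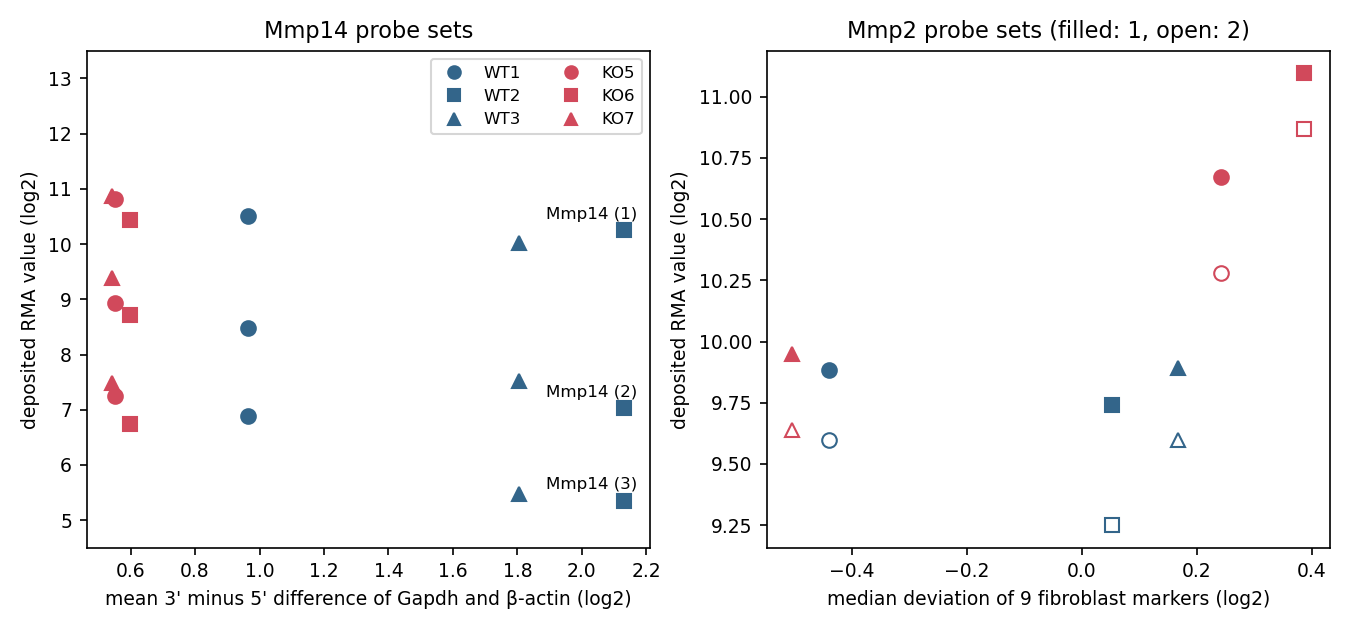
Left, the 3 Mmp14 probe sets (log2) against the 3' minus 5' control difference on each array; right, the Mmp2 probe sets (log2, filled for the brighter) against the median deviation of 9 fibroblast markers from their own means. WT2 and WT3, at 2.13 and 1.80 on the left axis, carry the lowest values of Mmp14 (2) and (3), and KO6, at 0.39 on the right axis, carries the highest Mmp2. KO7, lowest on the right axis at -0.50, lies above all WT arrays on both Mmp2 probe sets.

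The call of Mmp14 depended on the arrays used. It was kept under each scaling, filter, prior, weighting and block tried, and without WT1, at 1.73. It was lost without WT2, at 0.997, without WT3, at 1.25, and without KO5, KO6 or KO7, at 1.36, 1.47 and 1.14. The dimmest probe set was called without WT1, at 1.75, and with array weights, at 1.48. With the replicate number as a block it was also called, at 1.25. As 1 value per gene, the mean of all 3 probe sets differed by 1.01 (standard error 0.30, unadjusted p = 0.011 by limma) and was not called. The 3 genes whose probe sets, each centred on its mean, lay nearest to the called probe set over the 6 arrays were Stat5a, a transcription factor of alveolar development, the membrane protease gene Adam10 and the polarity gene Mpp7. Their root mean square distances from it were 0.09, 0.13 and 0.13 on the log2 scale. Their own differences were 1.26, 1.24 and 1.29, so that the likeness includes the difference between the groups. It also includes the order of the WT arrays, with WT1 highest and WT2 lowest, opposite to that of their 3' minus 5' differences.

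**Figure D3:**
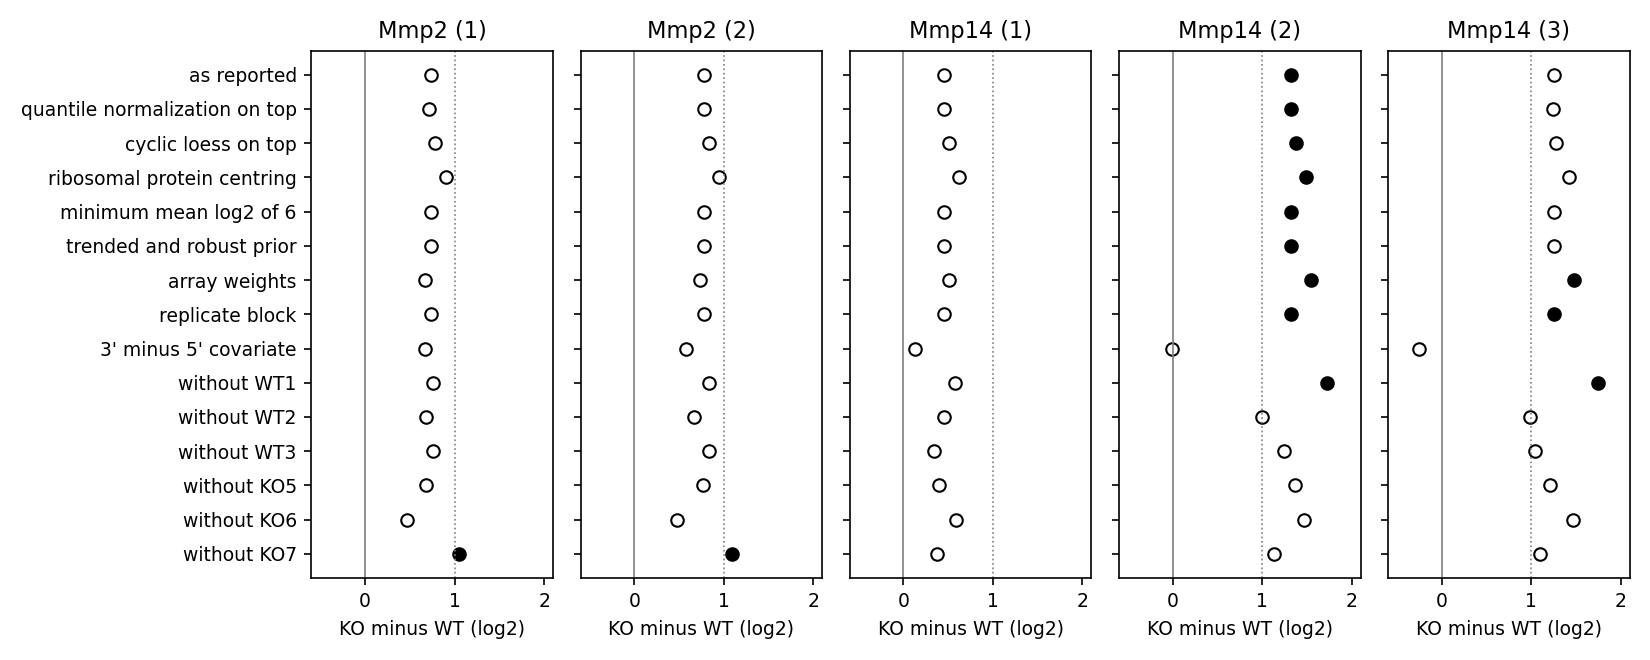
KO minus WT (log2) of the Mmp2 and Mmp14 probe sets as reported and under each of 14 alternatives, filled where called, with a dotted line at 2-fold. Mmp14 (2) moves between -0.01 with the 3' minus 5' covariate and 1.73 without WT1, and the Mmp2 probe sets pass 2-fold only without KO7, at 1.04 and 1.09.

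Mmp2, the secreted gelatinase that Mmp14 activates, had KO values above all WT values on both of its probe sets, short of a call. On the brighter probe set (1439364_a_at) WT1, WT2 and WT3 were at 9.88, 9.74 and 9.89 and KO5, KO6 and KO7 at 10.67, 11.10 and 9.95. KO7 lay just above the WT arrays, whereas KO5 and KO6 stood clear of them. The difference was 0.73 (standard error 0.27, 95% interval 0.11 to 1.36), or 1.66-fold, with an adjusted p = 0.197 by limma. On the other probe set (1416136_at) the WT arrays were at 9.60, 9.25 and 9.60 and the KO arrays at 10.28, 10.87 and 9.64, and the difference was 0.78 (standard error 0.29, adjusted p = 0.206 by limma). The probe sets gave like differences, and their distance from each other did not separate KO from WT (p = 0.7 in a two-sided exact permutation test). Without KO7 both were called, at 1.04 and 1.09, and without KO6 they were at 0.47 and 0.48.

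Fibroblasts are the main known source of Mmp2, and their markers varied among the same arrays. The summed linear level of 9 fibroblast markers, of which 0 lay in the range of the olfactory receptor probe sets, was between 11997 and 16603 in WT and between 10855 and 21991 in KO. KO6 held the highest and KO7 the lowest sum of all 6 arrays. KO6 also held the highest Mmp2, and KO7 lay just above all WT arrays on both Mmp2 probe sets. In WT1, WT2 and WT3 the sums were 11997, 13678 and 16603, with the brighter Mmp2 probe set at 9.88, 9.74 and 9.89. Of the 9 markers 6 had higher means in KO and 1 was called, with a median difference of 0.10. Endothelial markers had higher means in KO for 8 of 8 genes, against 7066 of all 18193 genes. Their sums were between 5065 and 6382 in WT and between 7693 and 10146 in KO. In whole organoids more cells of a type and more RNA per cell cannot be told apart, and the part of these cells in the values of Mmp2 and Mmp14 was not tested.

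The 4 members in the chromosome 9 run had KO means under WT means, by 0.21 to 0.58 in size, as had 11127 of all 18193 genes. By limma 0 of the 4 were called (0 with p under 0.05 before adjustment). Their measured neighbours in the run, whose promoters were not searched, also had lower KO means. Mmp1a, Mmp1b, Mmp7, Mmp8 and Mmp20 were at -0.18, -0.08, -0.14, -0.08 and -0.17. Mmp11, whose promoter window had neither motif, was at -0.17. Of all these, Mmp10, Mmp11, Mmp1a, Mmp1b, Mmp8 and Mmp20 lay within the range of the olfactory receptor probe sets. Mmp12, the macrophage metalloelastase, was at 6.44, 7.25 and 6.81 in WT1, WT2 and WT3 and at 6.60, 5.79 and 6.36 in KO5, KO6 and KO7. WT2 was the highest and KO6 the lowest, the groups overlapped, and the difference was -0.58 (95% interval -1.20 to 0.04, adjusted p = 0.285 by limma). Mmp13, a collagenase, was at 5.78, 6.92 and 5.40 in WT and 5.95, 4.98 and 5.43 in KO. WT2 stood above the other arrays, and the difference of -0.58 (95% interval -1.53 to 0.37) was -0.14 without that array. With the 3' minus 5' covariate Mmp12 was at 0.07 and Mmp13 at 0.12.

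Mmp3, stromelysin 1, which is known for side branching, was at 7.88, 7.95 and 8.80 in WT and 8.41, 8.35 and 7.24 in KO. WT3 was the highest and KO7 the lowest array, and the difference was -0.21 (95% interval -1.07 to 0.65, adjusted p = 0.806 by limma), so that neither direction was excluded. It was 0.08 without WT3, 0.17 without KO7 and 0.11 with the 3' minus 5' covariate. Mmp10, stromelysin 2, was at 4.46, 4.19 and 4.38 in WT and 4.11, 4.16 and 4.03 in KO. The groups did not overlap, but the gap between WT2 and KO6 was slight, and the difference of -0.24 (95% interval -0.52 to 0.03) was under 2-fold at both ends. Of the AP-1 and Ets factor genes listed, 11 were measured and 0 were called on their brightest probe set. In limma 4 had p under 0.05 before adjustment, where 19.1% of all genes did. These were Fosb, Jun, Junb and Jund, all with higher means and named after their values were seen. On the brightest Jun probe set the groups overlapped. The other probe sets of Jun and Jund were at 0.16 and 0.04, also with overlapping groups. That of Jund lay within the range of the olfactory receptor probe sets. Junb differed most, by 1.37 (standard error 0.50). Its WT arrays, at 11.33, 9.09 and 9.86, ran in the opposite order to their 3' minus 5' differences, as for Mmp14.

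Macrophages are a known source of Mmp12. All 10 of their markers measured had lower means in KO, as had 11127 of all 18193 genes. Their median difference was -0.32, beside -0.06 over all genes. Of these markers 1 was called lower, and 3 lay within the range of the olfactory receptor probe sets. Their sums lay between 1141 and 3585 in WT and between 834 and 2299 in KO and overlapped. Among the KO arrays KO6 had the highest macrophage sum and the lowest Mmp12. Their part in the Mmp12 values was not tested.

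**Figure D4:**
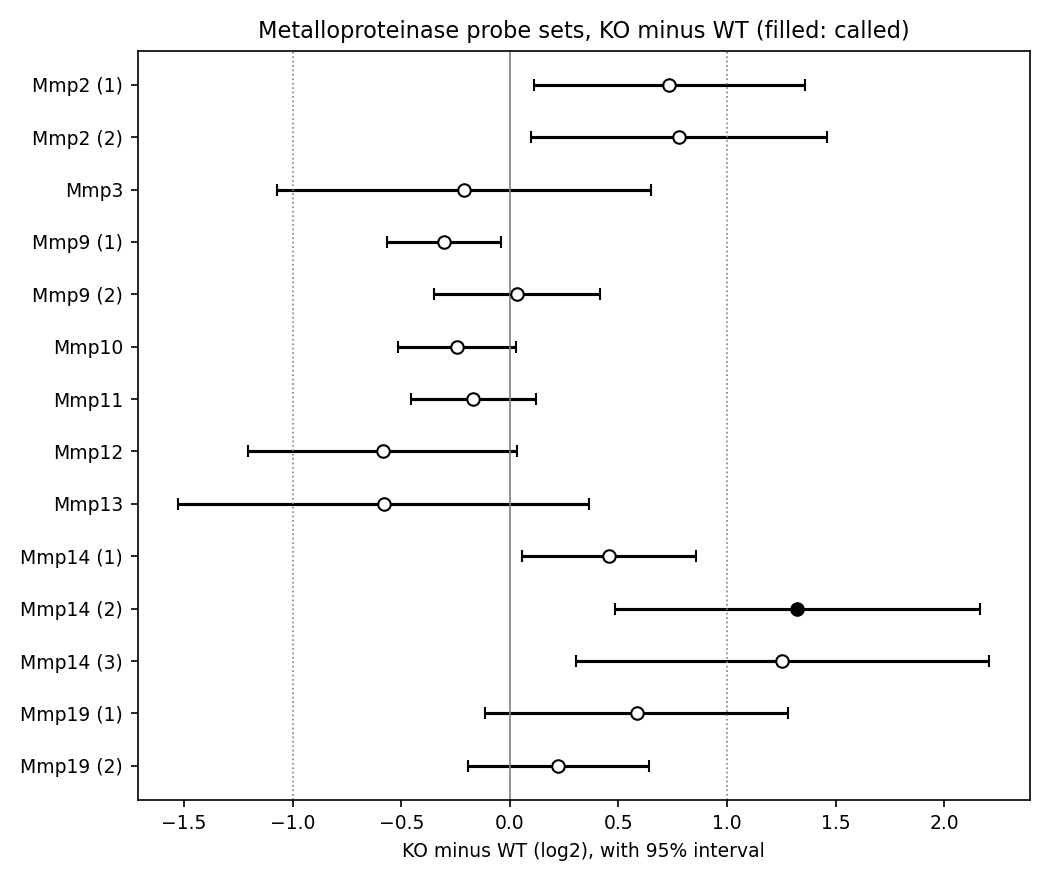
KO minus WT (log2) of the 14 metalloproteinase probe sets with 95% intervals, filled where called; dotted lines mark 2-fold. Only Mmp14 (2) is filled, 6 intervals exclude 0, and 6 lie wholly between the dotted lines.

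Mmp9, Mmp11 and Mmp19 were low on the arrays. Mmp9 is the gelatinase of neutrophils and macrophages, and on its brighter probe set (1416298_at) it was at 5.52, 5.35 and 5.43 in WT and 5.05, 5.09 and 5.25 in KO. Every KO array lay below every WT array, with a difference of -0.30 (95% interval -0.56 to -0.04, adjusted p = 0.205 by limma), while the dimmer probe set (1448291_at) differed by 0.03 with overlapping groups. Of 8 neutrophil markers, S100a9 and Ltf were called lower, 4 lay in the range of the olfactory receptor probe sets, and the median difference was -0.22. Their sums were between 3734 and 4021 in WT and between 651 and 1999 in KO, but Ltf, lactoferrin, which mammary epithelium is also known to make, gave 53.7% to 88.4% of each. Without Ltf, left out after its values were seen, the sums were between 435 and 676 in WT and between 301 and 454 in KO and overlapped, as did the median deviations of the whole list. Their part in the Mmp9 values was not tested.

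Mmp11, stromelysin 3, differed by -0.17 (95% interval -0.46 to 0.12), with overlapping groups. After ribosomal protein centring, which raised the median of all probe sets by 0.17, it was at 0, or -0.13 relative to that median. Mmp19, a secreted protease of broad range, was at 4.95, 4.78 and 5.46 in WT and 5.51, 6.27 and 5.17 in KO on its brighter probe set (1421977_at). KO6 stood apart and KO7 lay among the WT arrays, and the difference was 0.58 (95% interval -0.11 to 1.28, adjusted p = 0.336 by limma). Its other probe set differed by 0.22. As a gauge of low values, 44 probe sets of olfactory receptors, which the gland is not known to use, had means with a median of 3.87 and a 95th percentile of 5.21. The single probe sets of Mmp10 and Mmp11 and the dimmer ones of Mmp9 and Mmp19 had means over the 6 arrays under that 95th percentile, although probe sets differ in how strongly they bind.

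Of the other genes of the pathway, a list by role, 47 of 53 were measured, with 6 called higher and 0 lower by their brightest probe set in limma, against 0.517% and 0.462% of all genes. Their median difference was 0.14. The list was chosen with earlier results of these data known, and the study had already named Timp2 and Timp3 as higher. The shares of the list and of its roles are therefore descriptions and no test. The 9 other metalloproteinases measured gave 0 calls (limma, 1 with p under 0.05 before adjustment). That was the membrane-bound Mmp16, named after its value was seen, at -0.97 (standard error 0.28, adjusted p = 0.132 by limma) on a probe set that was at 6.19, 6.41 and 6.12 in WT and 5.35, 4.63 and 5.83 in KO. All KO arrays lay below all WT arrays on that probe set. The other Mmp16 probe sets were not called, at -0.24, -0.23 and -0.19. Those at -0.23 and -0.19 lay within the range of the olfactory receptor probe sets.

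Among inhibitors, Timp3, which binds to the matrix, rose. Its brightest probe set (1419089_at) was at 11.13, 10.71 and 10.56 in WT and 12.31, 12.30 and 11.84 in KO, well apart. The difference was 1.35 (standard error 0.19, adjusted p = 0.05 by limma), and 3 of its 4 probe sets were called, the other being at 0.78. Timp2 was called on 2 of its 6 probe sets, of which the one with the smaller p (1420924_at) was at 4.99, 4.94 and 5.29 in WT and 6.67, 7.06 and 6.52 in KO. That difference was 1.68 (standard error 0.17, adjusted p = 0.035 by limma). The brightest Timp2 probe set, at 0.49 (95% interval 0.00 to 0.97), was not called, and the next in brightness was at -0.04, or 0.13 after ribosomal protein centring. Another (1450040_at), at 1.11 with no overlap, was just short of a call (unadjusted p = 0.0103 by limma). It was at 0.03 with the 3' minus 5' covariate. The dimmest was at 0.13, within the range of the olfactory receptor probe sets. With the 3' minus 5' covariate, the Timp2 probe set with the smaller p and the dimmest of Timp3 were still called, at 1.75 and 1.28, whereas the other called ones of Timp2 and Timp3 were not, at 0.47, 0.91 and 1.0003. The other called Timp2 probe set (1433662_s_at), at 1.28, also lost its call without WT2, WT3, KO5 or KO6, at 1.19, 1.07, 1.22 and 1.12.

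**Figure D5:**
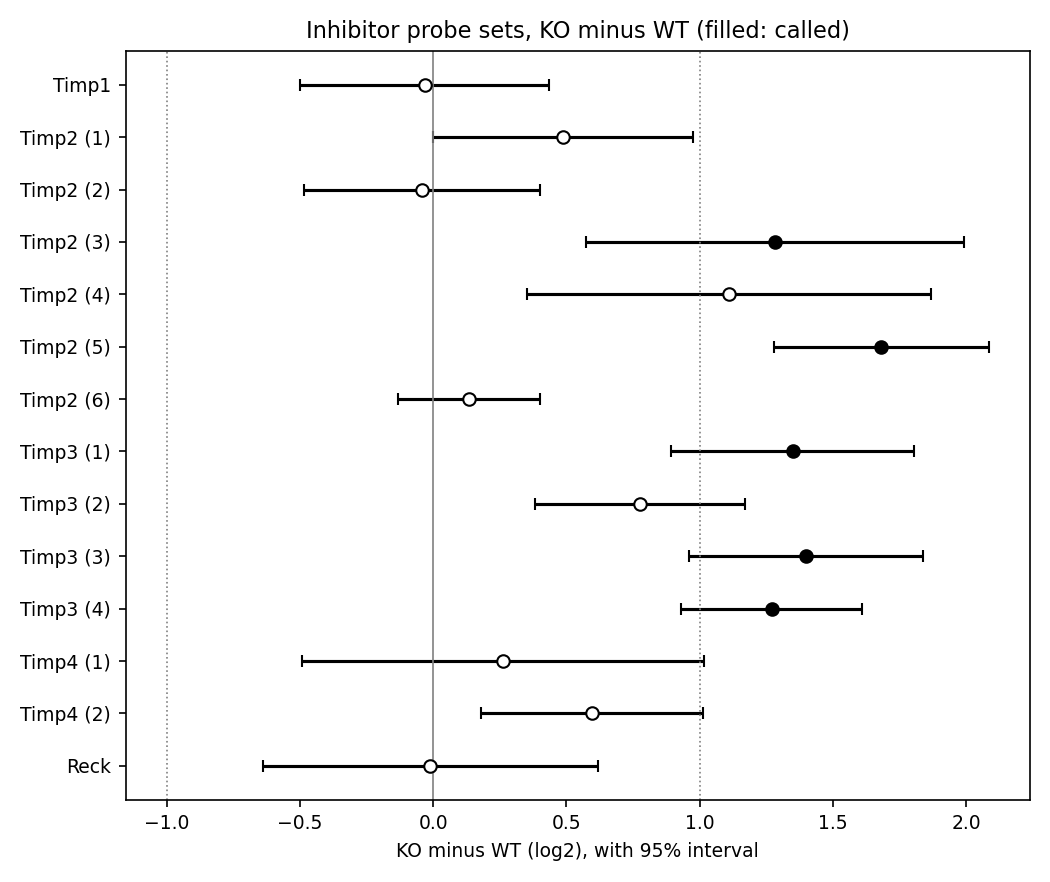
KO minus WT (log2) of all probe sets of the Timp genes and Reck with 95% intervals, filled where called, numbered from brightest to dimmest within a gene; dotted lines mark 2-fold. Timp3 has 3 filled probe sets of 4 and Timp2 has 2 of 6, and Timp1, Timp4 and Reck have 0.

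The remaining inhibitors were not called. Timp1 was at -0.03 (95% interval -0.50 to 0.44) and Reck, a membrane-anchored inhibitor, at -0.01 (95% interval -0.64 to 0.62), and both were above 0 after cyclic loess normalization and ribosomal protein centring. Timp4 was at 0.26 on its brightest probe set and 0.60 on the other, and the former was called, at 1.35, with the 3' minus 5' covariate. On their brightest probe sets 8 of 11 activators and cofactors had higher means in KO. By limma 3 were higher and 2 lower at p under 0.05 before adjustment, and 1 was called higher, against 0.517% of all genes. The called gene was the urokinase gene Plau, whose protease starts the plasmin cascade that activates proMmps. It was at 6.32, 4.67 and 5.09 in WT and 7.39, 7.52 and 7.12 in KO, a difference of 1.98 (standard error 0.39, adjusted p = 0.0675 by limma). As with Mmp14, WT1 was the highest WT array, and with the 3' minus 5' covariate the difference was 0.48 and not called.

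Substrates were the group with the most called genes. Of 11 measured, 4 were called higher and 0 lower by their brightest probe set in limma, against 0.517% and 0.462% of all genes. Their median difference was 0.84 beside -0.06 over all genes. By probe set 7 of 30 were called higher, and of the inhibitors 5 of 14, against 1.69% of all probe sets. The 4 called genes included Col1a1 of interstitial collagen (1.43). The others were from the basement membrane, the collagen chains Col4a1 (1.09) and Col4a2 (1.12) and the laminin chain Lama5 (1.64). Nid1, the basement membrane linker nidogen, was called on a dimmer probe set, at 1.73 (adjusted p = 0.0272 by limma), and was at 0.78 on the brightest. The type IV collagen chains were at 11.24, 11.25 and 11.05 (Col4a1) and 10.30, 10.04 and 10.09 (Col4a2) in WT. In KO they were at 12.43, 12.32 and 12.08 (Col4a1) and 11.43, 11.29 and 11.08 (Col4a2), with no overlap. KO7 was the lowest KO array for both chains, as it was for Mmp2, but here it lay clear of WT. Endothelial cells also make basement membrane, and their markers had a median difference of 0.53, with 8 of 8 means higher in KO and Cldn5 called, at 1.24. Their part in the values of the substrates was not tested. With the 3' minus 5' covariate Col4a2 and Lama5, at 0.89 and 0.70, were not called.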

How the data were processed

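Total RNA of mammary epithelial organoids was hybridised by the authors to Affymetrix mouse genome arrays, 1 per mouse, 3 WT and 3 KO. The deposited values are log2 signals from RMA, the method of background correction, quantile normalization and probe set summary named in the submitters' processing notes, whose version is not given in the sources used here. The methods name simpleaffy and limma. The values were used as they stand. Of 45101 probe sets, 64 Affymetrix controls were left out of the tests, and 34945 carry 1 gene symbol.

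The groups were compared with lmFit and eBayes of limma 3.58.1 under R 4.3.3, without covariates, on all 45037 probe sets. Every adjusted p is limma's, by Benjamini and Hochberg over all of them. Calls took an unadjusted p under 0.01 and at least 2-fold, the limits of the study. The genes named by rule are all member probe sets, Wwox, the Timps and Reck, every called pathway gene, and the 3 genes nearest to a called member. Outside that rule, Mmp16, Fosb, Jun, Junb, Jund, S100a9, Ltf and Cldn5 were named after their values were seen. The measured neighbours of the members in the chromosome 9 run were named for their place. Members and lists were chosen with earlier results of these data known. The number of arrays limits the precision, and between any 2 arrays the SD of the differences over probe sets was 0.30 to 0.54. Alternatives were quantile or cyclic loess normalization on top, ribosomal protein centring, a minimum mean of 6, a trended robust prior, array weights, the replicate number as a block, the 3' minus 5' covariate, each array left out, other limits, and other rules for 1 value per gene. In a test of this comparison on simulated data (45037 probe sets), 90% of changes of 1.2 and 100% of changes of 2 on the log2 scale were recovered, and 41 unchanged probe sets were called. These rates need not hold for probe sets that vary widely between mice. The dimmest Mmp14 probe set, at 1.25 with a standard error of 0.41, was not called. Promoters are from RefSeq (GRCm38.p6). No protein sequences were used here. Python 3.11.15 with matplotlib 3.10.9 made the figures.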

Additional observations from a re-analysis of the deposited data

How the results depend on the processing

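The metalloproteinase calls rest on few arrays. Higher probe sets were 2 with array weights, 0 with the 3' minus 5' covariate, 0 at an adjusted p under 0.05 and 4 at an unadjusted p under 0.05 with 1.5-fold. They ranged from 0 to 2 with 1 array left out. With the replicate number as a block they were 2, at 1.25 for the dimmest Mmp14 probe set. The block changed no other call of a metalloproteinase. The numbers were not taken to pair the mice, since deviations of same-numbered arrays correlated at -0.16, 0.16 and 0.10 and not every array matched its own number best. The called Mmp14 probe set was at -0.0102 with the 3' minus 5' covariate, and the cause was not tested. On 1 value per gene the higher members were 1 at the looser limits, 1 with any probe set counted and 0 to 1 with an array left out. Lower members were 0 throughout, also for probe sets. Pathway genes called higher were 3 with the covariate, 3 at an adjusted p under 0.05, 11 at the looser limits and 6 to 8 with an array left out. Those lower were 1 after quantile normalization, 2 at the looser limits and 0 to 1 with an array left out.

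Over the array, higher calls were 1193 after ribosomal protein centring, 137 with the covariate, 77 at an adjusted p under 0.05, 2437 at the looser limits and 481 to 1358 with an array left out. Lower calls were 62 after ribosomal protein centring, 23 at an adjusted p under 0.05, 1348 at the looser limits and 85 to 284 with an array left out. Wwox stayed between -1.80 and -1.61 with an array left out. With a minimum mean of 6 only 7 of the 14 probe sets were tested.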
